A study of Mus musculus with 2 samples.

Results

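Conventional type 2 dendritic cells (cDC2) of the mouse liver were selected from single-cell RNA counts by their own transcripts, and 304 of 7603 kept cell barcodes met the rule. A barcode was chosen by raw UMI counts (a UMI, or unique molecular identifier, tags a captured transcript so that copies are counted once). It needed at least 2 UMIs of Cd209a, the gene for a DC-SIGN type lectin, and at least 10 UMIs of H2-Ab1, an MHC class II beta chain. It could hold no UMI of Xcr1 or Clec9a (type 1 dendritic cells), at most 2 of C1qa, C1qb and C1qc together (macrophages), at most 2 of Ccr7, Fscn1 and Ccl22 together (migratory dendritic cells) and no Cd79a (B cells). Because these values chose the members, the levels of those genes describe the selection and support nothing else.

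From livers of C57BL/6 mice the study sorted cells carrying both CD45, which marks leukocytes, and CD11b, an integrin chain, and made 10x 3′ droplet libraries of them. The Ctrl library came from uninjured mice, and RES stands for mice after liver fibrosis that had resolved. There were 2 libraries, each a pool of 5 mice, which makes 1 library per group. The agent that caused the fibrosis, the time of resolution and the age of the mice are not given in the sources used here.

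With 1 library per group there is no replicate check, no p-value and no error between mice, and library and group cannot be told apart. All intervals are at the 95% level and cover the error of counting alone. Levels are UMI sums over the members of a library per 1000000 of their UMIs (CPM). A ratio is RES divided by Ctrl, as log2, and a gene was counted as higher or lower when the libraries lay at least 1.5-fold apart.

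Conventional dendritic cells arise from bone marrow precursors that depend on the receptor Flt3, and they take up antigen and show it to T cells on MHC molecules. The type 2 branch depends on the transcription factors Irf4 and Klf4, carries CD11b and Sirpa, and presents mainly on MHC class II to CD4+ T cells. Type 1 cells depend on Irf8 and Batf3 instead, and a sort on CD11b disfavours them.

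The Ctrl library held 20379164 UMIs in 3691 barcodes and the RES library 34119806 in 4278, of which 3446 and 4157 were kept, with medians of 4576 and 6549 UMIs. The members were 175 Ctrl barcodes with 1657210 UMIs in all and 129 RES barcodes with 1714754. Their median was 8921 UMIs in Ctrl and 12251 in RES, so RES members were sampled more deeply. Among the members, 12 of 175 Ctrl and 6 of 129 RES barcodes had a doublet score among the highest of their library and were kept by the rule. Of all kept barcodes, 109 in Ctrl (3.16%) and 146 in RES (3.51%) had such a score. The libraries shared 56 cell barcodes, of which 0 were Ctrl members and 2 were RES members.

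Of the conditions, Cd209a was the one that most often decided alone: 254 Ctrl and 237 RES barcodes met every other condition and had fewer than 2 of its UMIs. At exactly 2 Cd209a UMIs there were 19 Ctrl and 11 RES members, and 23 and 13 barcodes that met every other condition had 1. At 10 H2-Ab1 UMIs there were 1 and 0 members, with 2 and 0 barcodes just outside. Barcodes that failed only the Xcr1 and Clec9a condition numbered 49 in Ctrl and 33 in RES, and 31 and 23 of them had 1 UMI. Members had a median of 7 Cd209a UMIs in Ctrl and 9 in RES.

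cDC2 barcodes made up 5.08% of kept Ctrl barcodes (175 of 3446, exact Clopper-Pearson interval 4.37 to 5.86%) and 3.1% of kept RES barcodes (129 of 4157, 2.60 to 3.68%). The difference was -1.98 percentage points (Newcombe interval -2.90 to -1.08). The RES share was the lower one under each of the 11 other definitions tried. Requiring a Flt3 UMI as well left 2.96% and 1.8%, and thinning every barcode to 2000 UMIs before applying the rule left 5.0% and 2.97%. Natural killer (NK) barcodes filled much of both libraries, 1501 in Ctrl and 1422 in RES. Of the barcodes outside the NK gate, cDC2 were 9.0% in Ctrl and 4.72% in RES. These are shares of sorted cells: a change in the other sorted cells would move them too, and the number of cDC2 per liver was not measured.

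**Figure D1:**
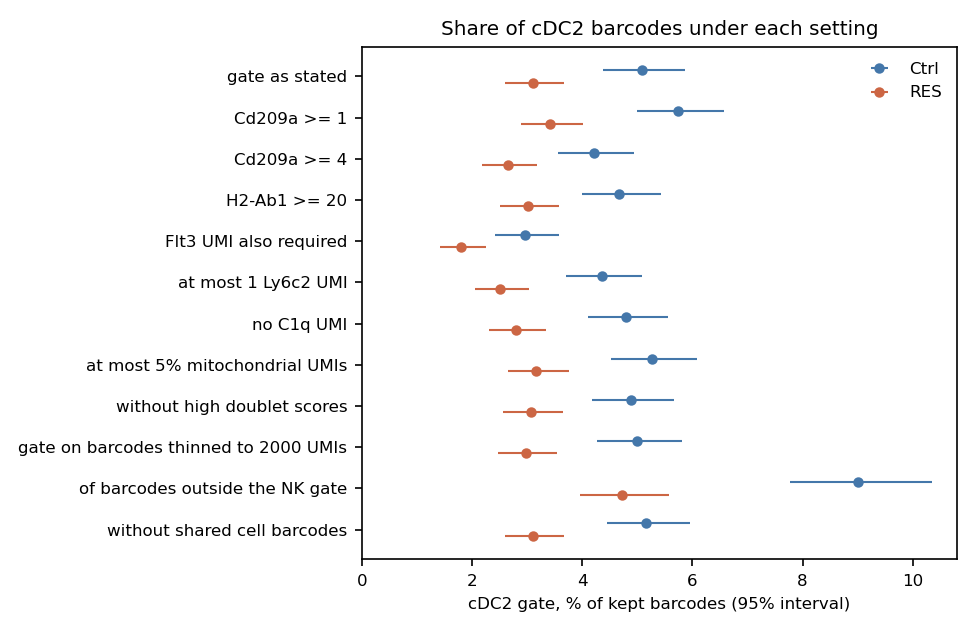
Share of kept barcodes that met the cDC2 rule (x axis, percent) under the stated rule and each of the 11 other definitions (y axis); points are libraries, blue Ctrl and orange RES, and bars are 95% Clopper-Pearson intervals for counting error. The stated rule gave 5.08% in Ctrl and 3.1% in RES, and the RES point lies left of the Ctrl point on every line.

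The label was checked against the markers Clec10a, Mgl2, Flt3 and Ciita, which the rule did not use, beside other gates of the same libraries. Clec10a, a galactose-binding lectin of type 2 dendritic cells, stood at 295 CPM in Ctrl members and 461 CPM in RES members, against 43.0 and 78.9 CPM in C1q macrophages, the next highest gate. Its neighbour and close paralogue Mgl2 stood at 138 and 428 CPM, against 85.3 and 82.7 CPM in migratory dendritic cells. Flt3 was 109 and 91.0 CPM in members, 149 and 192 CPM in type 1 cells and 15.5 and 10.9 CPM in classical monocytes. Ciita, the master regulator of MHC class II genes, was 440 and 358 CPM in members and 427 and 372 CPM in type 1 cells. Zbtb46, a transcription factor of conventional dendritic cells, was 50.1 and 31.5 CPM in members and 0.837 and 0.944 CPM in classical monocytes. Clec10a and Mgl2 were highest in the members in both libraries, while Flt3, Ciita and Zbtb46 were shared with type 1 cells.

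Ranked by the lower of the 2 libraries, the genes that stood highest over every other gate were Clec10a and Cd209d, a lectin gene beside Cd209a. They were followed by Trappc5, Kcne3 (a potassium channel subunit), Eps8, Ank, Ddit4, Ffar2 (a receptor for short-chain fatty acids), Bcl11a, Cd209b, AC140186.1, Ifitm1, Il1rl1 (the IL-33 receptor), Bex6 and Mgl2. Cd209b (7.24 CPM in Ctrl and 14.6 CPM in RES) and Il1rl1 (11.5 and 11.1 CPM) were low and absent from most members. Before thinning, Cd209b was seen in 4.57% and 4.65% of members and Il1rl1 in 5.71% and 13.2%. Cd209d was 89.3 CPM in Ctrl and 48.4 CPM in RES, and no other gate passed 5.33 CPM in Ctrl or 1.24 CPM in RES. Trappc5 at 3676299 to 3681255 on chromosome 8 lies next to the Cd209 cluster, with Cd209a at 3743397 to 3748984, Cd209d at 3871824 to 3878555 and Cd209b at 3917655 to 3926844 (GRCm38). These genes were ranked on the members themselves, so their height is a description.

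**Figure D2:**
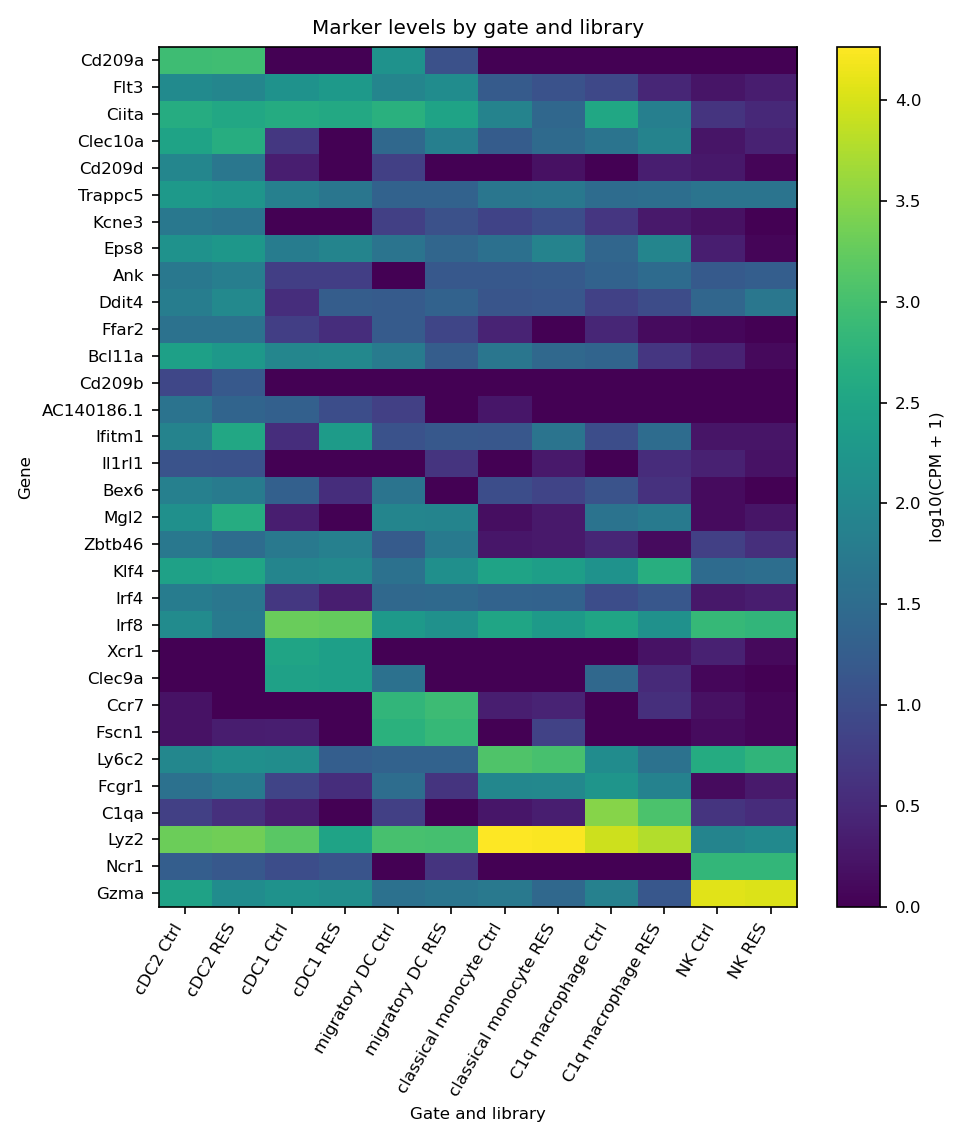
Level of each marker gene (rows) in each gate and library (columns), coloured by log10(CPM + 1). Clec10a and Cd209d are brightest in the cDC2 columns, Xcr1 and Clec9a in the type 1 columns, Ccr7 and Fscn1 in the migratory columns and Gzma in the NK columns.

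Marker transcripts listed for other cell types were present among the members. The 10 NK markers summed to 1185 CPM in Ctrl and 797 CPM in RES, and all 10 were seen in each. At least 2 of their UMIs were held by 144 Ctrl and 97 RES members, and at least 10 by 49 and 41. The same 10 summed to 114 and 68.1 CPM in classical monocytes and to 396 and 478 CPM in type 1 cells. In migratory dendritic cells they summed to 597 and 503 CPM, with Ncr1, Klrb1c, Gzmb, Prf1, Eomes and Klra8 at 0 in Ctrl. How much of the members' sum came from NK cells was not tested. The 7 classical monocyte markers summed to 1056 and 1502 CPM, with Chil3 at 0 in Ctrl. The same 7 summed to 1276 and 1549 CPM in the NK gate and to 1044 and 654 CPM in type 1 cells. In classical monocytes they summed to 4133 and 5561 CPM. The 8 macrophage markers summed to 255 and 607 CPM. T cell markers summed to 106 and 19.8 CPM and hepatocyte markers to 217 and 149 CPM. B cell markers summed to 182 and 124 CPM, with Cd79a at 0 because the rule requires it. Kupffer cell markers summed to 0.603 and 4.08 CPM, with Clec4f, Vsig4, Cd5l and Marco at 0 in both libraries. The 8 migratory dendritic cell markers, 3 of which the rule limits, summed to 30.2 CPM in Ctrl and 65.3 CPM in RES members, with Cacnb3 and Tmem150c at 0 in both libraries and Ccr7 at 0 in RES.

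At 100 CPM or more in one library or both, 1523 genes were compared, of which 102 were higher in RES members (6.70%) and 33 lower (2.17%), and the median log2 ratio was 0.04. At 20 CPM or more there were 5697 genes, of which 445 were higher (7.81%) and 351 lower (6.16%), and the median was 0.02. These shares are the background for the counts below.

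Of the label's markers that the rule did not use, the lectin genes Mgl2 and Clec10a were more than 1.5-fold apart. Clec10a was 295 CPM in Ctrl (Poisson interval 269 to 322) and 461 CPM in RES (430 to 495), a log2 ratio of 0.64 (0.48 to 0.81). Mgl2 was 138 CPM in Ctrl (120 to 157) and 428 CPM in RES (398 to 460), a log2 ratio of 1.64 (1.42 to 1.86). Mgl2 lies at 70130329 to 70137550 and Clec10a at 70156197 to 70170834 on chromosome 11 (GRCm38). Their coding sequences are alike, so reads that fit both could be lost or split, and each value is uncertain by that much. After thinning each barcode to 2000 UMIs, Mgl2 was seen in 10.6% of Ctrl members and 28.4% of RES members (19.4% and 42.6% before thinning). In the NK gate, thinned to 2000 UMIs as well, it was seen in 0.0965% and 0.163% (0.133% and 0.352% before thinning). The median depth there before thinning was 3460 UMIs in Ctrl and 4182.5 UMIs in RES. The RES share of Mgl2 was therefore the higher one at equal depth, and both member shares stood above the NK gate. For Clec10a the thinned shares were 35% and 43.6%, with overlapping intervals (28.0 to 42.6% and 34.9 to 52.6%).

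The other lectins and the remaining cDC2 markers did not all follow. Of 14 C-type lectins 11 were measured, and 5 of these were higher and 1 was lower (median 0.32). Mrc1, the mannose receptor, was 47.7 CPM in Ctrl, against 116 CPM in RES (log2 1.28), and Clec4e, a sensor of mycobacterial glycolipid, was 3.62 and 21 CPM (log2 2.54). Cd209d was the lower one, at 89.3 and 48.4 CPM (log2 -0.88). Cd209a itself, which the rule used, was 877 and 892 CPM. Flt3 was 109 CPM in Ctrl (93.3 to 126) and 91.0 CPM in RES (77.3 to 106), a log2 ratio of -0.26 whose interval held 0 (-0.57 to 0.06). Ciita was 440 and 358 CPM (log2 -0.30, -0.45 to -0.14), less than 1.5-fold apart.

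The genes that ranked highest in RES were AA467197, Arg1, Spp1, Gda, Fn1, Socs3, Dab2, Ifitm1, Basp1 and Mgl2. AA467197, also called Nmes1, encodes a small protein related to a complex IV subunit of mitochondria. It was 8.45 CPM in Ctrl (4.62 to 14.2) and 332 CPM in RES (306 to 361), a log2 ratio of 5.30 (4.54 to 6.18). It was seen in 5.14% of Ctrl and 31.0% of RES members, and in 1.62% and 19.8% after thinning, against 1.18% and 0.884% of thinned NK barcodes. A minority of RES members thus carried all of its RES UMIs, and 5 barcodes held 45.4% of them. The summed markers of migratory dendritic cells (30.2 and 65.3 CPM) and of macrophages (255 and 607 CPM, mostly Apoe) moved with it. Their part was not tested.

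Gda, guanine deaminase, was 23.5 CPM in Ctrl (16.7 to 32.2) and 222 CPM in RES (200.4 to 246), a log2 ratio of 3.24 (2.76 to 3.75). Socs3, an inhibitor of cytokine signalling through STAT3, was 16.9 CPM in Ctrl (11.2 to 24.4) and 101 CPM in RES (86.4 to 117), a log2 ratio of 2.58 (2.0 to 3.21). Socs3 was spread widely: 10.3% of Ctrl and 55.0% of RES members had a UMI, and 2.81% and 18.3% after thinning, against 2.80% and 4.41% of NK barcodes. Dab2, an endocytic adaptor, was 66.4 CPM in Ctrl (54.6 to 80.0) and 304 CPM in RES (279 to 332), a log2 ratio of 2.20 (1.90 to 2.51). The interferon-inducible membrane gene Ifitm1 was 80.9 CPM in Ctrl (67.7 to 95.8) and 357 CPM in RES (329.7 to 387), a log2 ratio of 2.14 (1.87 to 2.43). In Ctrl, 5 barcodes held 83.6% of the Ifitm1 UMIs and 52.7% of the Dab2 UMIs, and in RES 43.7% and 34.3%. Basp1, a membrane-bound signalling protein, was 39.2 CPM in Ctrl (30.3 to 49.99) and 156 CPM in RES (138 to 176), a log2 ratio of 1.99 (1.59 to 2.40). The intervals of these 5 lay apart between the libraries, but the genes were picked by this ratio, so this adds no support.

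Much of the RES count of Arg1, Spp1 and Fn1 lay in few barcodes. Arg1, the arginase of alternatively activated macrophages, was 2.41 CPM in Ctrl, against 178 CPM in RES (log2 6.20, 4.83 to 8.09), and 5 RES members held 86.9% of the RES UMIs. Spp1, which encodes osteopontin, was 4.83 and 118 CPM (log2 4.62, 3.61 to 5.85), and 5 RES members held 92.6%. Fn1, fibronectin, was 104 and 511 CPM (log2 2.30, 2.06 to 2.54), and 5 RES members held 57.4%. Without the 1 Ctrl and 11 RES members that held 3 or more UMIs of Arg1 and Spp1, the log2 ratios were 1.94, 1.62 and 0.77. In the NK gate Arg1 was 2.32 and 22.1 CPM, and after thinning it was seen in 0.528% and 4.41% of NK barcodes, against 0.540% and 7.12% of members. Spp1 was seen in 0.752% and 4.24% of thinned members and in 0.918% and 4.29% of NK barcodes. Where its UMIs in members came from was not tested. Fn1 was seen in 15.1% and 26.1% of members, with overlapping intervals (10.1 to 21.2% and 18.7 to 34.5%), and in 0.985% and 12.3% of NK barcodes. The macrophage marker sum, mostly Apoe, was higher in RES members too (255 and 607 CPM), and its part in these genes was not tested.

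**Figure D3:**
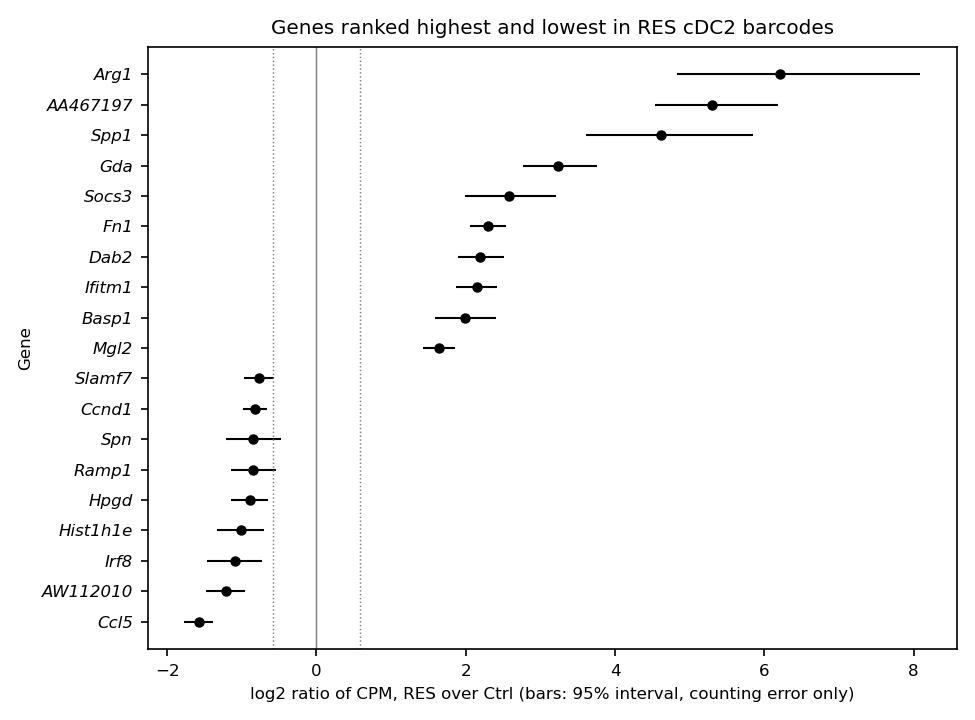
Log2 ratio of CPM, RES over Ctrl (x axis), for genes ranked highest and lowest in RES members (y axis); bars are 95% intervals for counting error and dotted lines mark 1.5-fold. AA467197 stands at 5.30 and Ccl5 at -1.58.

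The same genes moved in other gates, by amounts that were set side by side and not tested. AA467197 had log2 ratios of 3.94 in type 1 cells, 3.25 in classical monocytes and 3.69 in C1q macrophages, but -0.25 in migratory dendritic cells, where it was already 522 CPM in Ctrl. Gda was 376 CPM in Ctrl and 695 CPM in RES classical monocytes, and 9.14 and 2.59 CPM in type 1 cells. Ifitm1 was 2.61 and 222 CPM in type 1 cells. Mgl2 was 41.1 and 54.5 CPM in C1q macrophages and 85.3 and 82.7 CPM in migratory cells, both within 1.5-fold, while it was 1.64 log2 units higher in RES members.

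Among the genes that ranked lowest in RES were Ccl5, AW112010, Irf8, Hist1h1e, Hpgd, Ramp1, Spn, Ccnd1 and Slamf7. Ccnd1, the G1 cyclin D1, was 547 CPM in Ctrl (512 to 584) and 309 CPM in RES (283 to 337), a log2 ratio of -0.82 (-0.98 to -0.67). It lies at 144929931 to 144939925 on chromosome 7 (GRCm38). A Ccnd1 UMI was seen in 54.6% of Ctrl and 34.5% of RES members after thinning (46.9 to 62.1% and 26.4 to 43.4%), against 0.787% and 0.361% of NK barcodes. Before thinning the shares were 82.3% and 64.3%. The lower Ccnd1 level was thus also a lower share of members. Slamf7, an adhesion receptor of leukocytes, was 342 CPM in Ctrl (314 to 371) and 201 CPM in RES (179.97 to 223), a log2 ratio of -0.77 (-0.97 to -0.57).

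Hpgd, which degrades prostaglandins, was 229 CPM in Ctrl (206 to 253) and 123 CPM in RES (107 to 141), a log2 ratio of -0.89 (-1.14 to -0.65). Ramp1, a subunit of the receptor for the neuropeptide CGRP, was 154 and 85.7 CPM (log2 -0.84). In members without an Mgl2 UMI Ramp1 was within 1.5-fold (log2 -0.21, -0.57 to 0.13), as were Hpgd (-0.54), Slamf7 (-0.54) and Hist1h1e (-0.53). Slamf7 and Hpgd kept the lower value in RES in each other gate set beside them that had at least 20 CPM in both libraries. Hpgd was 415 and 61.9 CPM in C1q macrophages. Slamf7 was also lower in RES in classical monocytes, at 56.9 and 19.1 CPM, where the RES value was under that minimum.

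Some of the genes lower in RES are abundant in NK cells. Ccl5, a chemokine, was 527 CPM in Ctrl members (492 to 563) and 177 CPM in RES members (157 to 198), a log2 ratio of -1.58 (-1.77 to -1.39). In the NK gate it was 16479 and 16291 CPM, and 5 barcodes held 55.0% of the members' UMIs in Ctrl and 81.2% in RES. A UMI was seen in 38.3% and 38.8% of members, and in 17.4% and 10.2% after thinning, with overlapping intervals (12.1 to 23.8% and 5.54 to 16.7%). AW112010, a transcript annotated as a long non-coding RNA, was 240 CPM in Ctrl (217 to 265) and 104 CPM in RES (89.1 to 120.2), and 4426 and 4219 CPM in the NK gate. Irf8 was 115 and 53.7 CPM (log2 -1.10), Hist1h1e, a linker histone, 151 and 74.6 CPM (log2 -1.02) and Spn, the sialophorin CD43, 103 and 57.2 CPM (log2 -0.84). Without the members that held 10 or more NK marker UMIs, which left 126 Ctrl and 88 RES barcodes, the log2 ratio of Ccl5 was -1.11 and that of Spn -0.66. Those of AW112010 (-0.17), Hist1h1e (-0.48) and Irf8 (-0.54) were then less than 1.5-fold.

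**Figure D4:**
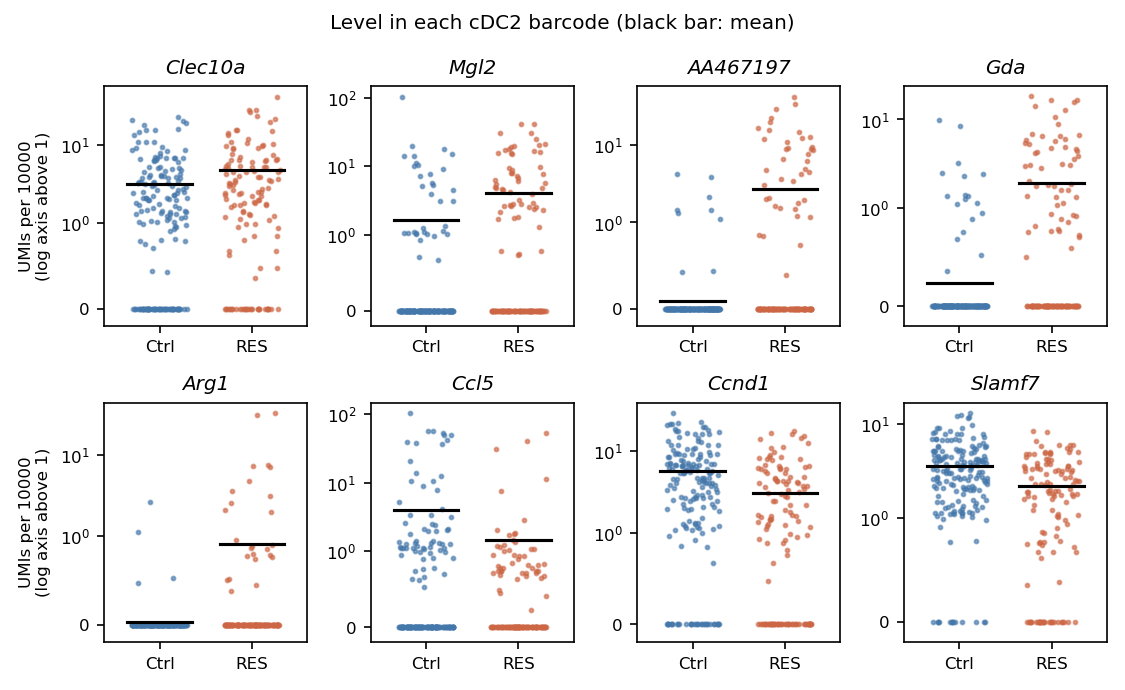
UMIs per 10000 in each cDC2 barcode (y axis, linear up to 1 and log above) for 8 genes, with Ctrl in blue and RES in orange; each point is 1 barcode and black bars are means over barcodes. Clec10a, Ccnd1 and Slamf7 are spread over most members, while AA467197 and Arg1 lie at 0 in most members of both libraries.

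Antigen presentation genes stood close to level. Of 11 MHC class II genes, all measured, 1 was higher and none lower in RES, with a median of 0.04. H2-Aa, an alpha chain, was 7189 CPM in Ctrl and 7379 CPM in RES, H2-Eb1, a beta chain, 5256 and 5845 CPM, and the invariant chain Cd74 19253 and 18322 CPM. The higher one was Lgmn, a lysosomal protease, at 60.3 CPM, against 114 CPM in RES (log2 0.92). The same list had medians of 0.20 in type 1 cells, 0.02 in migratory dendritic cells, -1.19 in classical monocytes and -1.65 in C1q macrophages. Of 14 MHC class I genes none was 1.5-fold apart, with a median of -0.08, against -1.07 in C1q macrophages. These differences between gates were not tested.

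Promoter sequences of H2-Aa and H2-Eb1 are shown because both genes are members of the list that stood close to level. They come from RefSeq (GRCm38.p6), are read 5′ to 3′ on the gene's strand and end before the transcription start. Capitals mark the Y box ATTGG, searched on both strands (its reverse is CCAAT), a core of MHC class II promoters. H2-Aa is at chr17:34287837-34287901 on the minus strand and H2-Eb1 at chr17:34305778-34305866 on the plus strand.
H2-Aa: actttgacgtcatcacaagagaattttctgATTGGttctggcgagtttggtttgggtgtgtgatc
H2-Eb1: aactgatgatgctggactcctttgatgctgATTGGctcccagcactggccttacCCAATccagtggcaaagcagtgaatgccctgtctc
The Y box was present in the 250 bases before the start of 8 of 9 MHC class II genes with a promoter in the table, against 37.5% of all 27025 genes.

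Many interferon response genes were lower in RES members. Of 18 interferon gamma response genes 13 were measured, none was higher and 8 were lower (61.5%), with a median of -0.94. Gbp2, a guanylate-binding GTPase, was 35 CPM in Ctrl, against 9.91 CPM in RES (log2 -1.82, -2.69 to -1.02), and the GTPases Irgm2 and Igtp were 21.1 and 7.58 CPM (log2 -1.48) and 24.7 and 12.2 CPM (log2 -1.01). For Gbp2, 5 members held 74.1% of the Ctrl UMIs, and 9.71% of Ctrl and 8.53% of RES members had a UMI before thinning. Irf1, a transcription factor induced by interferon, was 79.0 and 43.7 CPM (log2 -0.85). Cxcl9 and Cxcl10, chemokines for activated T cells, rested on single barcodes: the 30 Cxcl9 UMIs and 134 Cxcl10 UMIs of RES were each found in 0.775% of members, which is 1 barcode. Their ratios (log2 -1.53 and 0.42) therefore describe 1 RES barcode each. The list median was -2.43 in type 1 cells, -2.74 in migratory cells, -1.77 in classical monocytes, -3.28 in C1q macrophages and -0.22 in the NK gate, so the cDC2 value was nearer to level than those of the other 4 myeloid gates. Among members without an Mgl2 UMI the median was -0.28, with a Flt3 UMI required -0.37, without members holding 10 or more NK marker UMIs -0.67, and in the 31 Ctrl and 32 RES members with fewer than 2 such UMIs -0.10. The NK markers, at 1185 and 797 CPM, moved with this list, and their part in it was not tested beyond these values.

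Of 20 type I interferon response genes 17 were measured, none was higher and 7 were lower, with a median of -0.46 that became 0.31 where a Flt3 UMI was required. Ifi205, a DNA-sensing family gene, was 37.4 CPM in Ctrl, against 11.7 CPM in RES (log2 -1.68), and turned to 0.49 with that requirement. Ly6a, which encodes Sca-1, was 37.4 and 17.5 CPM (log2 -1.10). For Ifi205 and for Ly6a, 5 members held 80.6% of the Ctrl UMIs. Mx1, an antiviral GTPase, was 37.4 and 18.7 CPM (log2 -1.0), whereas Isg15 (132 and 121 CPM) and Ifit1 (25.3 and 30.9 CPM) were within 1.5-fold.

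The promoters of the interferon gamma genes are shown for the element that the factors of interferon signalling bind, the interferon-stimulated response element (GAAA, any 2 bases, then GAAA, searched on both strands), in capitals. It was found in 7 of 9 list genes with a promoter in the table and in 3.46% of all 27025 genes. It also overlaps the Ets-IRF composite element (GGAA, any 2 bases, then GAAA), which 2.68% of all genes hold, in Igtp and Irgm2. Gbp2 is at chr3:142620574-142620643 (plus), Igtp at chr11:58199492-58199555 (plus), Irgm2 at chr11:58214883-58214952 (plus) and Irgm1 at chr11:48871421-48871480 (minus).
Gbp2: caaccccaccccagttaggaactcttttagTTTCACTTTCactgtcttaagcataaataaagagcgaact
Igtp: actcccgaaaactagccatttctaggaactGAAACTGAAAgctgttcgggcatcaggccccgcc
Irgm2: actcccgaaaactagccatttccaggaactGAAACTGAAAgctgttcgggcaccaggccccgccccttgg
Irgm1: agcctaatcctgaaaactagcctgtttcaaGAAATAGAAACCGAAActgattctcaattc
A match is only these letters in this window. Among the 10 genes ranked highest, 1 of 8 with a promoter held the element (Spp1), and among the 10 lowest 0 of 6.

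Most glycolysis and hypoxia genes were higher in RES members. Of 19 genes 18 were measured, 14 were higher (77.8%) and none was lower, and their median was 0.69. It was 0.33 in members without an Mgl2 UMI and 1.15 in those with 2 or more. Slc2a1, the glucose carrier, was 9.65 CPM in Ctrl, against 30.9 CPM in RES (log2 1.68), and Mif, a cytokine often induced by hypoxia, was 94.7 and 266 CPM (log2 1.49, 1.22 to 1.76). The glycolytic enzymes Tpi1 (56.7 and 134 CPM, log2 1.24), Aldoa (149.6 and 322 CPM, log2 1.11) and Gapdh (557 and 883 CPM, log2 0.66) went the same way. Hk2, a hexokinase at the entry to the pathway, was 127 and 85.1 CPM (log2 -0.58), just under 1.5-fold. The median was 2.06 in C1q macrophages, 0.69 in classical monocytes, 0.63 in migratory cells, 0.29 in type 1 cells and 0.09 in the NK gate. The sums of macrophage markers (255 and 607 CPM, mostly Apoe) and classical monocyte markers (1056 and 1502 CPM) moved with this list in the members. Their part in it was not tested.

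Genes of scar-associated and alternatively activated macrophages had the highest list median, 1.26, with 10 of 12 measured genes higher and none lower, out of 20. Arg1, Spp1 and Fn1 are among these 12. Plin2, which coats lipid droplets, was 62.8 CPM in Ctrl, against 149 CPM in RES (log2 1.24), while Cd9 (131 and 135 CPM) and Lgals3 (942 and 957 CPM) were level. The median was 0.68 in members without an Mgl2 UMI and 0.34 in the 31 Ctrl and 32 RES members with fewer than 2 NK marker UMIs. In other gates the median was 1.69 in C1q macrophages, 1.10 in classical monocytes, 0.54 in migratory cells, -0.17 in type 1 cells and 0.98 in the NK gate. Among monocyte and macrophage genes 5 of 15 measured were higher and none lower (median 0.51). Cd14, a co-receptor for bacterial lipopolysaccharide, was 6.64 and 37.3 CPM (log2 2.49) and Apoe 178 and 467 CPM (log2 1.39). Vcan, from 1 Ctrl UMI and 39 RES UMIs, had a log2 ratio of 5.24 (2.67 to 10.6), with 97.4% of the RES UMIs in 5 barcodes. With counts below 3 set to 3, the Vcan ratio was -0.50 in the members with fewer than 2 NK marker UMIs. Csf1r (193 and 213 CPM) and Lyz2 (2046 and 2173 CPM) were within 1.5-fold. The sums of macrophage markers (255 and 607 CPM, mostly Apoe) and classical monocyte markers (1056 and 1502 CPM) moved with both lists. These marker lists share genes with them, and their part was not tested. Fewer or more barcodes of mixed content cannot be told apart here from a change within each member.

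Among transcription factors of dendritic cells 17 of 19 were measured, 2 were higher and 2 lower (median -0.06). Irf4 was 59.7 CPM in Ctrl, against 47.8 CPM in RES (log2 -0.32, -0.76 to 0.12) and Klf4 277 and 319.6 CPM (log2 0.21), both within 1.5-fold. Nfil3, a regulator of dendritic and innate lymphoid cells, was 6.03 and 25.7 CPM (log2 2.09) and Id2, an inhibitor of E proteins, 220.3 and 383 CPM (log2 0.80). Irf8 and Zbtb46 (50.1 and 31.5 CPM, log2 -0.67) were the lower ones. For Zbtb46 the thinned shares were 9.83% and 6.00%, with overlapping intervals (5.85 to 15.2% and 2.58 to 11.6%). Growth factor receptors gave 2 higher of 11 measured: Il4ra, which binds IL-4 and IL-13, was 47.1 and 96.2 CPM (log2 1.03) and Csf2rb2 12.1 and 32.7 CPM (log2 1.44).

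Costimulation and checkpoint genes gave 2 higher and 1 lower of 10 measured (median 0.13). Cd24a was 16.9 CPM in Ctrl, against 68.2 CPM in RES (log2 2.01), Cd83, a maturation marker, 41.0 and 62.4 CPM (log2 0.60) and Icam1, an adhesion ligand, 68.8 and 40.8 CPM (log2 -0.75). The surface and subset list gave none of 10 at 1.5-fold (median 0.15), with Sirpa at 156 and 170.3 CPM, Itgam at 184 and 271 CPM and Cx3cr1, the fractalkine receptor, at 227 and 159 CPM (log2 -0.52).

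Cytokine genes were seldom measured, 5 of 21. Il1b was 44.7 CPM in Ctrl, against 145 CPM in RES (log2 1.70, 1.32 to 2.10), seen in 21.1% and 45% of members before thinning. Ebi3, a subunit of IL-27, was 47.1 and 28.6 CPM (log2 -0.72). Of 9 measured chemokines 1 was higher and 4 lower: Cxcl2, a neutrophil attractant, was 15.1 and 44.9 CPM (log2 1.57), and Ccl4 and Ccl3 were 35.6 and 12.2 CPM (log2 -1.54) and 44.7 and 16.9 CPM (log2 -1.40). For Cxcl2, 5 barcodes held 96.0% of the Ctrl and 85.7% of the RES UMIs. In the members with fewer than 2 NK marker UMIs Cxcl2 was -2.82 and Ccl4 0.50. Ccl5 is among the lower ones and lies on the interferon gamma list too. Of 14 measured trafficking receptors 4 were higher and none lower, among them the chemokine receptor Ccr1 (28.4 and 70.0 CPM, log2 1.30).

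Of 11 measured innate sensors 2 were higher and 1 lower. Tmem173, which encodes STING, the adaptor of cytosolic DNA sensing, was 67.6 and 142 CPM (log2 1.07) and Cd180, a relative of the toll-like receptors, 80.3 and 36.7 CPM (log2 -1.13). Lipid and retinoid genes gave 2 higher and 1 lower of 14 (median -0.16). Dhrs3, a retinaldehyde reductase, was 13.3 and 53.7 CPM (log2 2.01) and Abcg1, a cholesterol exporter, 59.1 and 32.1 CPM (log2 -0.88). The S100 and annexin list had none of 11 at 1.5-fold (median 0.11).

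Glucocorticoid-induced genes gave 5 higher and none lower of 9 measured (median 0.59). Fkbp5, a chaperone of the glucocorticoid receptor, was 8.45 CPM in Ctrl, against 31.5 CPM in RES (log2 1.90), Klf9 11.5 and 34.4 CPM (log2 1.59) and Tsc22d3, which encodes GILZ, 132 and 159.8 CPM (log2 0.27). The median was 0.95 in classical monocytes and 0.59 in the NK gate. Immediate early and handling genes gave 4 higher and 1 lower of 20, with Hspa1a at 12.1 and 60.7 CPM (log2 2.33) and its near-identical copy Hspa1b at 18.1 and 78.7 CPM (log2 2.12). Reads that fit both copies make these last 2 values uncertain.

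Cell cycle genes gave none higher and 8 lower of 10 measured (median -1.54), but from few barcodes. Mki67, a marker of dividing cells, had 54 UMIs in Ctrl, of which 92.6% lay in 5 members, and 8 in RES. Pclaf, a partner of the replication clamp, had 61 Ctrl UMIs in 1.71% of members and 1 RES UMI in 0.775%, a log2 ratio of -5.98 (-11.3 to -3.45). With the mean of per-barcode CPM in place of the sum the median was -0.58, and without members holding 10 or more NK marker UMIs it was -0.03.

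**Figure D5:**
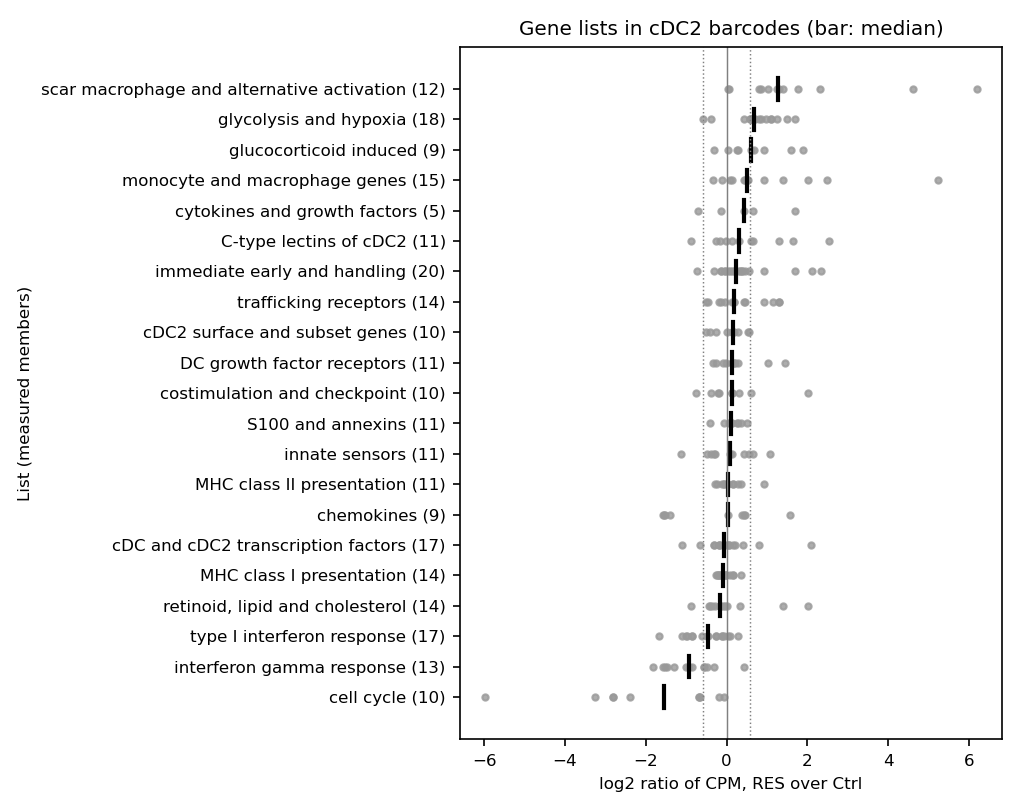
Log2 ratio of CPM, RES over Ctrl (x axis), for the measured genes of the 21 lists (y axis, with the number measured); grey points are genes, black bars are list medians and dotted lines mark 1.5-fold. The scar macrophage list has a median of 1.26 and the cell cycle list one of -1.54.

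Members differed among themselves in Mgl2. Members with 2 or more Mgl2 UMIs were 20 of 175 in Ctrl (11.4%, 7.12 to 17.1%) and 51 of 129 in RES (39.5%, 31.0 to 48.5%), and members with none were 80.6% and 57.4%. This split was chosen after its values were seen, and it follows depth in part: the median was 9615.5 and 14027 UMIs in the first set and 8750 and 11662 UMIs in the second. In both libraries Dab2, Mrc1, Lilr4b, Pltp, Gda and Ccr1 were higher with Mgl2. Dab2 was 273 CPM with and 32.2 CPM without Mgl2 in Ctrl, and 464 and 171 CPM in RES. The Ctrl values came from 59 and 42 UMIs, and the highest single Ctrl member held 36 Dab2 UMIs. Cd7, Bcl11a, Ms4a6b, Plac8 and Isg15 were lower with Mgl2 in both libraries. Plac8 was 768 CPM with and 1276 CPM without Mgl2 in Ctrl, and 525 and 1661 CPM in RES. Cd209a was alike, at 916 and 845 CPM in Ctrl and 856 and 921 CPM in RES.

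Part of the difference between the libraries was present within the members that lacked Mgl2. Those 141 Ctrl and 74 RES members are part of all members, so some overlap in calls is built in. Of the 102 genes higher and 33 lower in RES among all members, 47 and 16 were called in that set too. In that set 67 genes were higher and 20 lower of 1508 compared. There AA467197 was 9.20 CPM in Ctrl, against 95.2 CPM in RES (log2 3.37, 2.49 to 4.38), Gda 19.9 and 90.6 CPM (log2 2.19), Socs3 14.6 and 107 CPM (log2 2.87), Dab2 32.2 and 171 CPM (log2 2.41) and Ccnd1 566 and 305 CPM (log2 -0.89). Among members with 2 or more Mgl2 UMIs, AA467197 was 0 in Ctrl, from 20 barcodes, and 616 CPM in RES, and Gda was 55.5 and 371 CPM (log2 2.74). Dab2 was there 273 and 464 CPM (log2 0.77) and Flt3 92.6 and 48.1 CPM (log2 -0.95). Flt3 was 108 and 135 CPM in members without Mgl2 (log2 0.33, -0.04 to 0.69), so its direction differed between the sets, a difference that was not tested.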

How the data were processed

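The files deposited by the authors hold raw UMI counts for each gene and barcode. Per the file headers they were made with Cell Ranger 3.1.0. The submitters' processing notes list bcl2fastq and the mm10 build, and which annotation was counted is not given in the sources used here. Each matrix has 31053 genes, and the lowest deposited barcode had 500 UMIs. A kept barcode had 200 or more genes and no more than 10% of mitochondrial UMIs, which left out 245 Ctrl and 121 RES barcodes. Doublets were scored with Scrublet (scanpy 1.11.5), and the highest scores (0.8% per 1000 barcodes) were removed as an alternative.

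UMIs were summed over members and scaled to CPM. Ratios carry exact conditional binomial intervals, CPM exact Poisson intervals and shares Clopper-Pearson intervals, at 95%. Counts below 3 were set to 3 in list medians, in the 1.5-fold calls and in ratios under other settings. Ratios printed with an interval use the counts as they are. Thinned shares are expected shares after drawing 2000 UMIs per barcode without replacement, and 83 Ctrl and 25 RES NK barcodes were too shallow. No test between groups was possible with 1 library each. The functions were tested on simulated data.

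Genes were ranked by log2 ratio after adding 10 CPM, among those of at least 100 CPM, and the 10 at each end were named. Xist, Y-linked, haemoglobin, ribosomal protein and mitochondrial genes, the genes of the gate and NK, T, B, neutrophil, hepatocyte, endothelial and plasmacytoid dendritic cell markers were not ranked. Added to these were up to 4 genes of each of the 21 lists (at least 20 CPM), the 15 marking genes and the markers of the label. Other genes were named after their values were seen. The members, gates and lists were chosen with earlier results of these data known. Gene positions are from GENCODE M21. Some genes were not analysed here, and some picked by the rules are not reported.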

Additional observations from a re-analysis of the deposited data

Results flagged for a closer look

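Spn, the sialophorin CD43 of leukocytes, lay in opposite directions in 2 gates. Its log2 ratio was 0.99 in the C1q macrophage gate (41.1 CPM in Ctrl and 81.4 CPM in RES) and -0.84 in the cDC2 gate (103 and 57.2 CPM). With 1 library per group this difference was not tested.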

How the results depend on the processing

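The cDC2 share was lower in RES under every definition. The Ctrl share was 4.21% with at least 4 Cd209a UMIs. Requiring a Flt3 UMI gave 2.96% and 1.8%, and at most 1 Ly6c2 UMI gave 4.35% and 2.50%. Outside the NK gate the shares were 9.0% and 4.72%, a difference of -4.28 points. The 102 higher and 33 lower genes became 179 and 133 after thinning members to 2000 UMIs, 213 and 108 at a minimum of 50 CPM, and 41 and 14 at 200 CPM. Among alternatives chosen after seeing the data, the counts were 67 and 20 in members without Mgl2, 220 and 190 in those with 2 or more Mgl2 UMIs, and 227 and 151 without members holding 2 or more NK marker UMIs, which left 31 Ctrl and 32 RES barcodes. Lists with a median of 1.5-fold or more numbered 5, but 2 with the mean of per-barcode CPM and 3 at 100 CPM. The cell cycle median of -1.54 was -0.64 with Flt3 required, -0.58 with the mean of per-barcode CPM, -0.59 after thinning, -0.81 with no minimum, -0.60 without barcodes rich in Arg1 or Spp1, -0.41 with 2 or more Mgl2 UMIs and -0.029 without members holding 10 or more NK marker UMIs. The interferon gamma median was -0.28 without Mgl2 and -0.10 without members holding 2 or more NK marker UMIs, and the scar macrophage median 0.68 and 0.34.

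Single genes changed direction as follows, with counts below 3 set to 3. Ifi205 was 0.49 with Flt3 required and Pclaf 0.44 after thinning. Cd83 was -0.47 without Mgl2. With 2 or more Mgl2 UMIs, Ly6a was 0.63 and Pdgfb -1.08 (Mgl2 itself, on which these members were chosen, was -0.10 and says nothing of its direction). Without members holding 2 or more NK marker UMIs, Id2 was -0.26, Vcan -0.50, Gbp2 0.086, Ifi205 0.88, Ly6a 0.72, Pdgfb -0.14, Ccl4 0.50 and Cxcl2 -2.82. Pclaf had 1 RES UMI and Vcan 1 Ctrl UMI among all members, so those sides were set to 3. So was the Ctrl side of Ly6a with Mgl2 (1 UMI), whose ratio was 2.22 as counted. The cause was not tested for the genes other than Mgl2. A list with under 3 genes at 100 CPM has no median there. No paired analysis was possible because each group has 1 library, and leaving out a replicate was not possible for the same reason.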
